A study of Caenorhabditis elegans with 4 samples.

Results

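The glutathione S-transferase genes of Caenorhabditis elegans were described in newly hatched larvae of the first stage (L1). Members were every gene whose RefSeq symbol is gst followed by a number, and 44 of the 41614 genes with values fit that rule. RNA came from whole animals, so a level is an average over all tissues, and fewer cells of a type cannot be told apart from less RNA per cell. There were 2 libraries from wild-type larvae and 2 from larvae carrying the uf171 allele of dve-1, a homeodomain protein gene known for its part in the mitochondrial stress response. Both genotypes were grown at 25 degrees Celsius on plates with the bacterial food OP50, and about 1200 larvae were pooled per sample. The labels do not say what kind of lesion uf171 is, nor whether libraries of a genotype stem from different cultures. P-values here therefore reflect the spread among these samples alone, and that spread may be technical. Values of a genotype are always given in the order of its first and second library. The deposited unit is FPKM, a fragment density corrected for transcript length and sequencing depth, which allows levels to be compared between genes of different length.

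Glutathione S-transferases join the tripeptide glutathione to reactive or fat-soluble compounds, which makes these compounds more soluble and easier to export. In C. elegans the family is large, many members are expressed in the intestine, and several are induced by oxidants and foreign chemicals through SKN-1, the worm counterpart of mammalian NRF2. The member used most often as a reporter of that response is gst-4. SKN-1 is held down by WDR-23, which directs it to degradation, and is activated by a p38 kinase cascade that ends in PMK-1.

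The stage, L1, is taken from the labels, and markers were read beside it. No markers of embryos or later larvae were listed, so these values do not set L1 apart from those stages. Of 7 matched marker genes of adults and oocytes, 6 were under 1 FPKM in every library, and their summed level was 1.58 to 3.83 FPKM. The timing genes lin-14 and lin-28, which are active in this stage, together stood at 209 to 243 FPKM. Sperm markers summed to 1.11 to 4.86 FPKM. Cuticle and moulting markers differed within each genotype. Their sum was 355 FPKM in the first and 23.4 in the second wild-type library, and 35.7 in the first and 176 in the second mutant library. Over the 15202 genes tested, which are no independent replicates, the correlation of log2 values was 0.858 within wild type, 0.862 within the mutant and 0.808 to 0.836 for pairs of unlike genotype.

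All 44 members had values above 0 in every library, and all 44 passed the filter of a mean of at least 1 FPKM. The family spanned a 977-fold range of mean levels, from 1.14 FPKM for gst-32 to 1109 FPKM for gst-5. Its upper tier, at a mean level of 100 FPKM or more, was made up of 12 genes, namely gst-5, gst-1, gst-7, gst-4, gst-10, gst-36, gst-24, gst-39, gst-13, gst-20, gst-35 and gst-27. A further 16 members lay between 10 and 100 FPKM, 9 between 5 and 10, and 7 under 5. Among all tested genes 10.4% reached 100 FPKM, against 27.3% of the family. Summed over members, the family came to 4162 and 3243 FPKM in wild type, and to 3484 and 4218 FPKM in the mutant. These sums were 0.174% and 0.138% of all FPKM in wild type, against 0.155% and 0.206% in the mutant, so the 2 genotypes overlapped. The 10 most abundant members supplied 74.8% to 78.3% of the family total in each library, and gst-5 alone 26.5% to 32.3%.

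**Figure D1:**
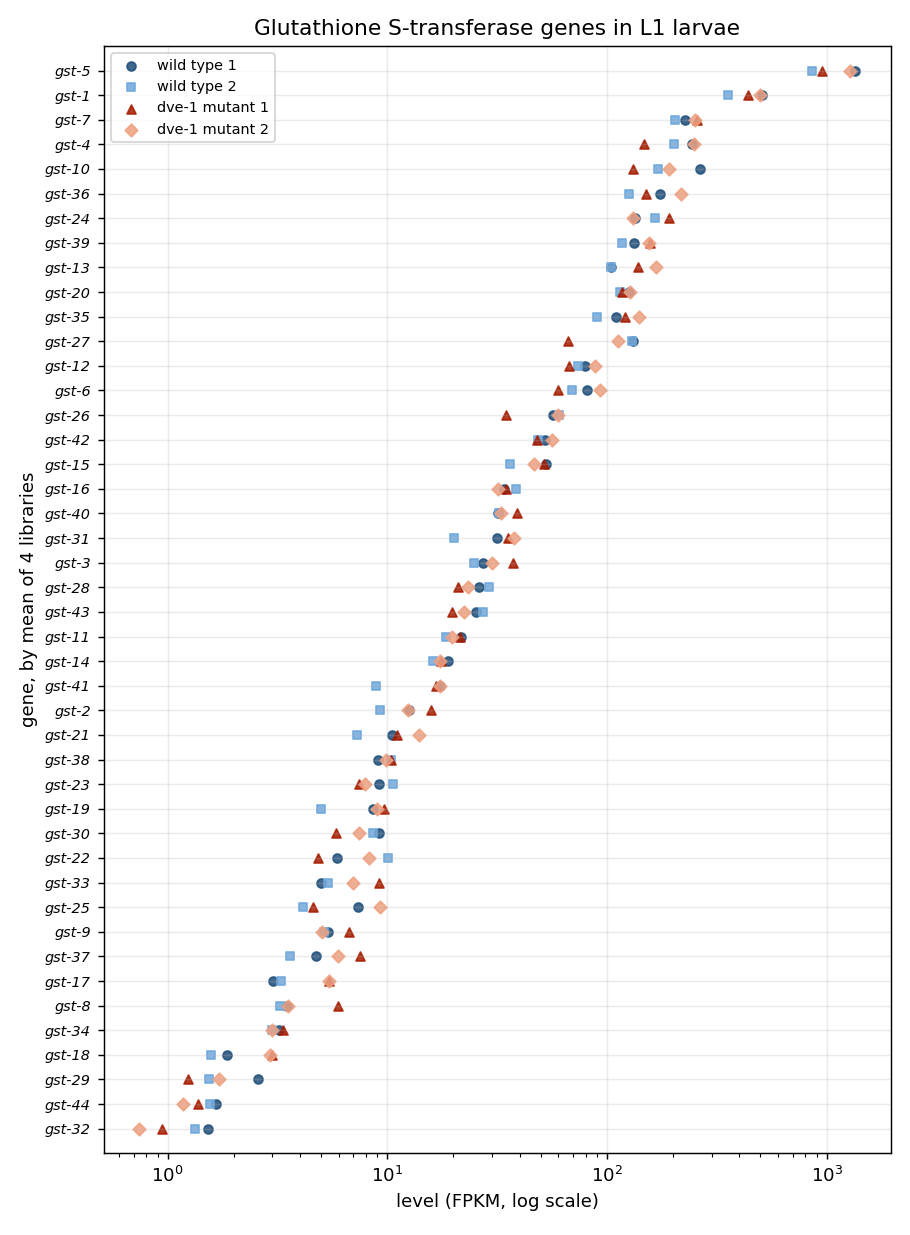
Level of each of the 44 gst genes in FPKM on a log axis, with 1 symbol per library and genes ordered by their mean. The order of levels from gst-5 at the top to gst-32 at the bottom spans 977-fold, while the 4 libraries of a gene lie close together on that scale.

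No member passed the test between genotypes. By limma on log2(FPKM + 1), with Benjamini-Hochberg adjustment over all 15202 genes and a threshold of 0.05, 0 of 44 members were called, where 1.66% of all tested genes were, 0.303% higher and 1.36% lower. The lowest adjusted p of the family was 0.331. At an unadjusted limma p under 0.05, 2 members were higher in the mutant (gst-17 and gst-13) and 0 lower, against 6.28% and 5.58% of tested genes. The median log2 fold change, mutant over wild type, was 0.08 for the family and 0.09 for all tested genes, with quartiles of -0.20 and 0.35 for the family and -0.15 and 0.36 for all genes. Estimates were above 0 for 30 members and below 0 for 14, but under median-ratio scaling of the libraries only 21 were above 0 and the family median was -0.02. In 14 members the mutant values were both above the wild-type pair, in 7 both were below, and in 23 the groups overlapped. These shares, 31.8% and 15.9%, stood near the 28.1% and 15.9% of all tested genes.

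A miss of the threshold does not show that levels were equal, so the intervals are given. For 24 of the 44 members the 95% limma interval of the log2 fold change, not adjusted for the number of genes, lay inside -1 to 1, which is less than a 2-fold change either way. That share, 54.5%, stood near the 51.7% of all tested genes. For the other 20 members the interval reached past 2-fold, and 11 of those had a mean under 10 FPKM. No member had an estimate beyond 2-fold, where 15.4% of all tested genes did. The standard error of a member's log2 fold change ranged from 0.10 to 0.45, with a median of 0.22, the same as over all tested genes.

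**Figure D2:**
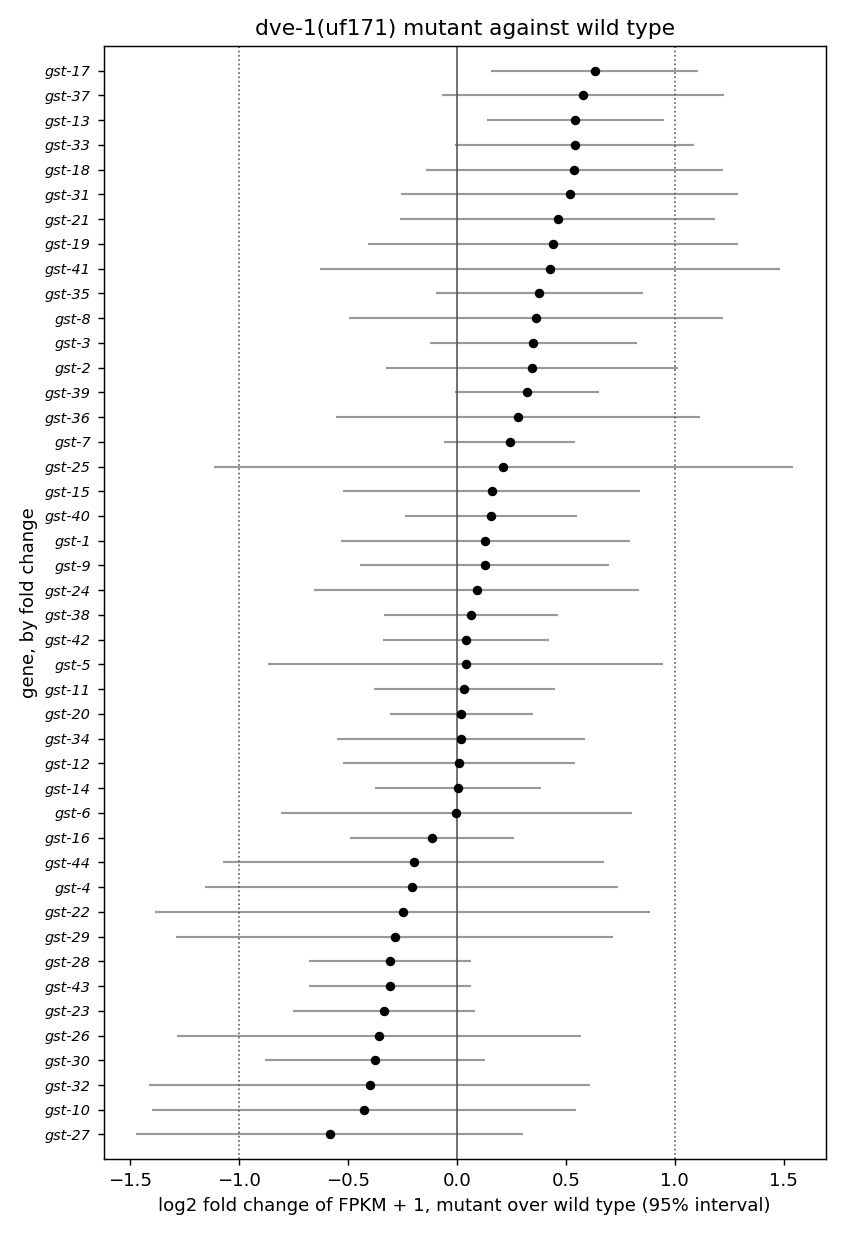
Log2 fold change of FPKM + 1, mutant over wild type, for each of the 44 members (points) with its 95% limma interval (lines); dotted lines mark a 2-fold change. All points lie between the dotted lines, and only the intervals of gst-17 and gst-13 do not reach 0.

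Among members with a described role, gst-4 was found at 244 and 202 FPKM in the wild-type pair, against 147 and 250 FPKM in the mutant pair. The lowest and the highest of these values both came from the mutant, so the groups overlapped. Its log2 fold change was -0.21 (SE 0.32, 95% interval -1.16 to 0.74, limma adjusted p = 0.8), and it turned to 0.17 without the first mutant library. Exons of gst-4 also overlap those of dhs-12 on the same strand. The gene gst-1 encodes a pi-class enzyme studied in dopamine neurons. It stood at 509 and 357 FPKM in the wild-type pair, against 437 and 500 FPKM in the mutant pair, again with overlapping groups (log2 fold change 0.13, SE 0.22, limma adjusted p = 0.826), and at -0.12 without the second wild-type library.

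The zeta-class gene gst-42 encodes maleylacetoacetate isomerase, an enzyme of tyrosine breakdown. It stood at 52.1 and 48.7 FPKM in the wild-type pair, against 48.1 and 55.9 FPKM in the mutant pair, with overlapping groups. The interval of its log2 fold change ran from -0.34 to 0.42 (estimate 0.04, limma adjusted p = 0.918). The other zeta-class gene, gst-43, was found at 25.3 and 27.2 FPKM in the wild-type pair, against 19.7 and 22.4 FPKM in the mutant pair. The mutant pair lay wholly below wild type, but the difference missed the threshold (log2 fold change -0.31, SE 0.13, adjusted p by limma = 0.489).

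The most abundant member, gst-5 (chromosome II, 10950352 to 10951603, WBcel235), stood 2.46-fold above the next one in mean level. It was found at 1343 and 860 FPKM in the wild-type pair, against 952 and 1282 FPKM in the mutant pair. Means were 1102 ± 342 and 1117 ± 233 FPKM (SD, n = 2), and the values of each genotype spread over almost the same range (log2 fold change 0.04, SE 0.31, limma adjusted p = 0.976). Its exons overlap those of nos-1 on the opposite strand, and no source used here says whether the counting used strand.

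Of the 12 members at 100 FPKM or more, 7 had overlapping groups, 4 had both mutant values above wild type, and 1 had both below, where 28.1% of all tested genes lay wholly above and 15.9% wholly below. The 4 were gst-7, gst-39, gst-13 and gst-35. The largest difference among them was that of gst-13 (chromosome II, 9231457 to 9232344, WBcel235), at 104 and 105 FPKM in the wild-type pair, against 138 and 168 FPKM in the mutant pair. Its mutant mean was 1.47 times that of wild type, with a log2 fold change of 0.54 (SE 0.14, unadjusted p = 0.0224, limma adjusted p = 0.331).

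The genes gst-7 and gst-39 differed by less. For gst-7 the values were 226 and 205 FPKM in wild type, against 258 and 251 FPKM in the mutant (log2 fold change 0.24, SE 0.10, limma adjusted p = 0.495). For gst-39 they were 133 and 117 FPKM against 157 and 155 FPKM (log2 fold change 0.32, SE 0.11, limma adjusted p = 0.435). In both genes the mutant libraries lay closer to each other than the wild-type libraries did.

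The 1 abundant member with both mutant values below was gst-27, with 131 and 129 FPKM in wild type, against 66.4 and 112 FPKM in the mutant. It had the lowest estimate of the family (log2 fold change -0.58, SE 0.30, limma adjusted p = 0.557). That estimate was -0.21 without the first mutant library and -0.96 without the second. The neighbour gst-26 also had its lowest value in the first mutant library, with 57.1 and 60.3 FPKM in wild type, against 34.5 and 60.0 FPKM in the mutant (log2 fold change -0.36, limma adjusted p = 0.631), and its estimate was 0.03 without that library.

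Of the remaining abundant members, gst-36, whose exons overlap scav-5 on the opposite strand, stood at 175 and 126 FPKM in the wild-type pair, against 150 and 217 FPKM in the mutant pair (log2 fold change 0.28, SE 0.28, adjusted p by limma = 0.675), and its estimate ran from 0.014 without the second mutant library to 0.54 without the first. The gene gst-24 was found at 134 and 166 FPKM in the wild-type pair, against 192 and 131 FPKM in the mutant pair (0.09, SE 0.25, limma adjusted p = 0.905). The steadiest was gst-20, with 126 and 115 FPKM against 117 and 127 FPKM and an interval from -0.31 to 0.35 (limma adjusted p = 0.963). In all 3 genes the groups overlapped.

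Of the 5 largest positive estimates, 4 belonged to members under 10 FPKM. The highest was that of gst-17, found at 3.03 and 3.27 FPKM in the wild-type pair, against 5.40 and 5.45 FPKM in the mutant pair (log2 fold change 0.63, SE 0.16, unadjusted p = 0.0224, limma adjusted p = 0.331). The mutant mean was 1.72 times the wild-type mean. Its neighbour gst-18 stood at 1.87 and 1.57 FPKM and at 2.97 and 2.92 FPKM (log2 fold change 0.54, SE 0.23, limma adjusted p = 0.499). Annotated exons of gst-17 and gst-18 overlap on the same strand, so reads of one can be assigned to the other and the pair are not separate observations.

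Both other weak members with large positive estimates lie on chromosome V. The gene gst-37 was found at 4.76 and 3.59 FPKM in the wild-type pair, against 7.50 and 5.94 FPKM in the mutant pair (log2 fold change 0.58, SE 0.22, adjusted p by limma = 0.461). The gene gst-33 was found at 4.998 and 5.39 FPKM and at 9.13 and 7.01 FPKM (log2 fold change 0.54, SE 0.18, limma adjusted p = 0.426). In both, all mutant values lay above all wild-type values.

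On the low side, gst-30 stood at 9.16 and 8.59 FPKM in the wild-type pair, against 5.85 and 7.44 FPKM in the mutant pair (log2 fold change -0.38, SE 0.17, adjusted p by limma = 0.516). The weakest member, gst-32, stood at 1.52 and 1.33 FPKM and at 0.940 and 0.743 FPKM (log2 fold change -0.40, SE 0.34, limma adjusted p = 0.627), so that 43 members reached 1 FPKM in each mutant library against 44 in each wild-type library. Its exons overlap those of Y53F4B.36 on the opposite strand. Over the 16 members with a mean under 10 FPKM, 6 had both mutant values above wild type and 4 had both below, beside 28.1% and 15.9% of all tested genes.

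Many members lie in groups of neighbours. With at most 10 kb between members, 25 of the 44 fell into 4 groups, and the other 19 stood apart; 25 of the 44 are on chromosome II. The first group holds gst-6, gst-7, gst-8 and gst-9 (chromosome II, 4879891 to 4893573, WBcel235). The second runs from gst-20 to gst-18 and holds 9 genes on 1 strand (chromosome II, 13608154 to 13630887). The third runs from gst-26 to gst-35, also with 9 genes on 1 strand (chromosome II, 15163817 to 15185389). The fourth holds gst-3, gst-2 and gst-4 (chromosome IV, 10139380 to 10143099).

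Neighbours were not expressed at like levels. Mean levels within a group differed 57.8-fold in the first, from gst-8 to gst-7, 66.7-fold in the second, from gst-18 to gst-24, and 124-fold in the third, from gst-32 to gst-39. In the fourth group gst-4 stood 16.9-fold above gst-2, whose exons overlap K08F4.15 on the opposite strand. In the second group the first genes in chromosomal order were the most abundant: gst-20 and gst-24 had means of 121 and 156 FPKM, and the last, gst-19, gst-17 and gst-18, had means of 8.05, 4.29 and 2.33 FPKM. In the third group the abundant genes gst-27, gst-39 and gst-35 (110, 140 and 115 FPKM) were interspersed with gst-29, gst-32 and gst-34 (1.77, 1.14 and 3.13 FPKM).

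Estimates between genotypes pointed both ways within groups. In the third group 4 were above 0 and 5 below, with a median log2 fold change of -0.29. The neighbours gst-26, gst-27, gst-28 and gst-29 were all below 0, and gst-39 and gst-31 next to them above 0. For gst-28 the values were 26.3 and 29.0 FPKM in wild type, against 20.9 and 23.3 FPKM in the mutant, and for gst-31 they were 31.7 and 20.2 FPKM and 35.6 and 37.8 FPKM. In the second group 8 estimates were above 0 and 1 below, with a median of 0.09. None of these genes passed the limma threshold. Close copies within a group can share reads; no source used here says how reads that align to several places were treated, and similarity between members was not measured here. No 2 members had both wild-type values within 0.5% of each other.

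**Figure D3:**
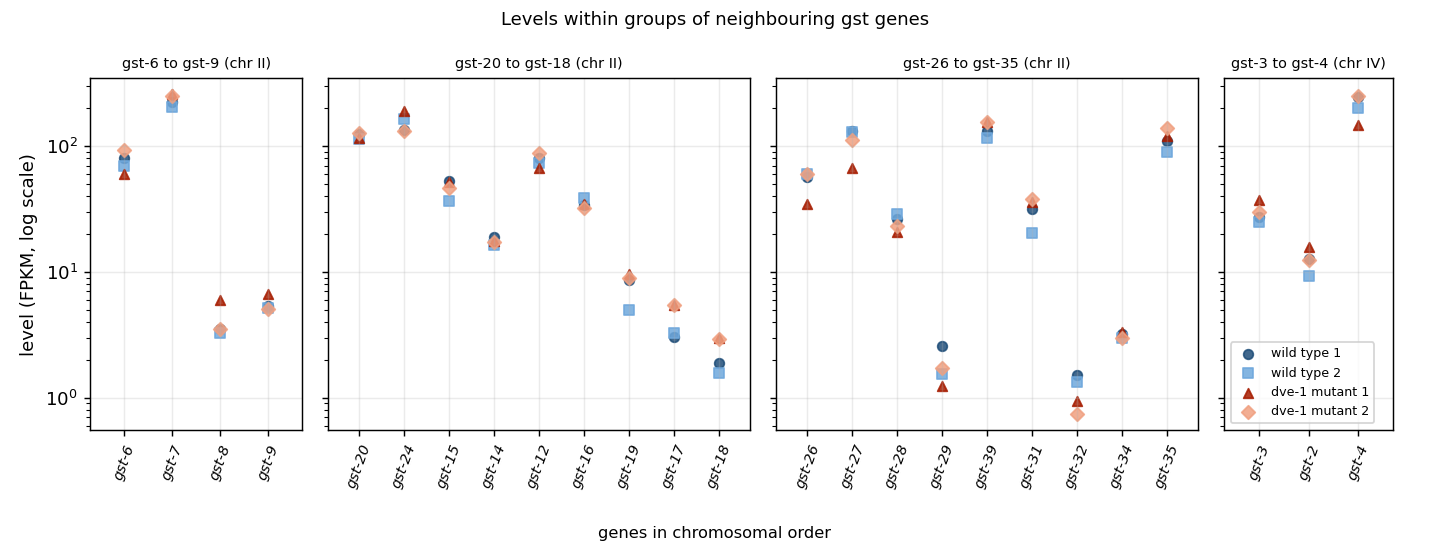
Levels in FPKM on a log axis of the 25 members in the 4 groups of neighbouring genes, in chromosomal order, with 1 symbol per library. Mean levels within a group differ 16.9-fold to 124-fold, more than the libraries of any 1 gene do.

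For 3 members the table gave more than 1 accession, and in gst-10 these behaved differently. The gene encodes an enzyme that conjugates hydroxynonenal, a toxic product of lipid peroxidation (chromosome V, 2561690 to 2564645, WBcel235). Summed over accessions it stood at 265 and 172 FPKM in the wild-type pair, against 131 and 192 FPKM in the mutant pair (log2 fold change -0.43, SE 0.33, limma adjusted p = 0.627). That value ran from -0.74 without the second wild-type library to -0.11 without the first. Accession NM_071300 was found at 108 and 80.01 FPKM in the wild-type pair, against 14.9 and 28.1 FPKM in the mutant pair, so the mutant pair lay well below the wild-type pair. Accession NM_001316843 was found at 157 and 91.6 FPKM in the wild-type pair, against 116 and 164 FPKM in the mutant pair, with overlapping groups.

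Tested as single accessions, neither passed. In a limma fit over 17854 accessions, chosen after these values were seen, 1.38% of accessions were called. There NM_071300 had a log2 fold change of -2.13 (SE 0.38, 95% interval -3.27 to -0.98, unadjusted p = 0.00817, limma adjusted p = 0.187), and its mutant mean was 0.229 times the wild-type mean. With 1 library left out the value ranged from -2.56 to -1.69. The other accession, NM_001316843, had one of 0.20 (SE 0.36, limma adjusted p = 0.846). At an unadjusted p under 0.05, 5.56% of accessions were lower in the mutant. Estimates under -2 were found for 4.56% of all accessions, and groups with both mutant values below wild type for 16%. The share of the gene's FPKM given to NM_071300 was 40.7% and 46.6% in wild type, against 11.4% and 14.6% in the mutant.

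These values rest on how fragments were divided between transcripts that share sequence. The annotation gives gst-10 one transcript of 719 nt with 3 exons and one of 360 nt that lies within the last exon of the first. Which accession is which of them was not determined here. Because the 2 accessions differ, the summed value of gst-10 depends on how they are combined: with the highest accession of each gene in place of the sum, its log2 fold change was 0.20 in place of -0.43.

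The gene gst-5 has the same layout, with a transcript of 725 nt and one of 291 nt inside its last exon. Accession NM_001267338 was found at 278 and 202 FPKM in the wild-type pair, against 288 and 339 FPKM in the mutant pair (log2 fold change 0.40, SE 0.21, limma adjusted p = 0.607). Accession NM_001267340 was found at 1066 and 658 FPKM and at 664 and 943 FPKM (log2 fold change -0.08, limma adjusted p = 0.951). The share given to the first was 20.7% and 23.5% in wild type, against 30.3% and 26.5% in the mutant, a smaller difference than in gst-10. In gst-21, accession NM_001269074 had a value of 0 in 3 libraries and 4.51 FPKM in mutant library 1, where it took 40.6% of the gene, which stood at 10.5 and 7.29 FPKM in the wild-type pair, against 11.1 and 14.0 FPKM in the mutant pair.

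**Figure D4:**
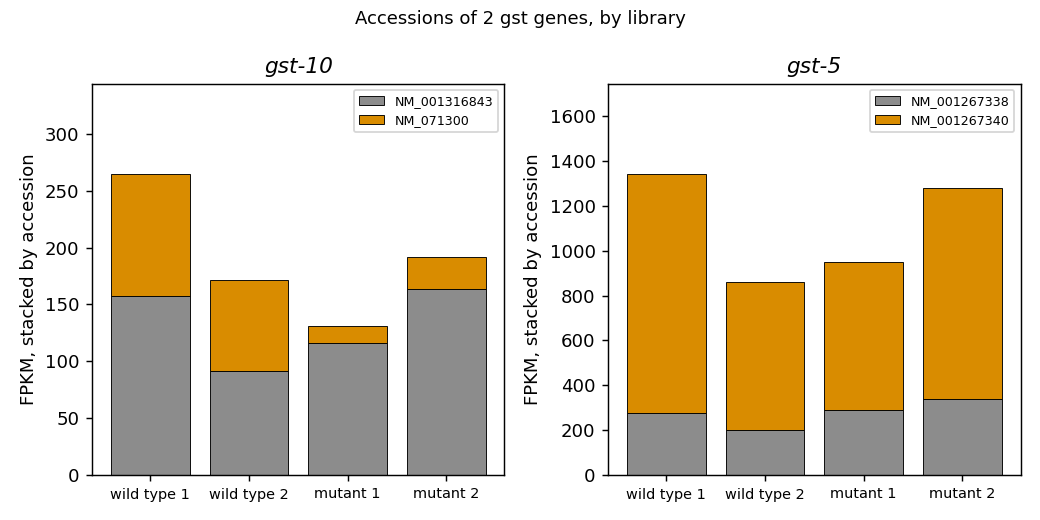
FPKM per library of the accessions of gst-10 (left) and gst-5 (right), stacked to the gene's sum. In gst-10 the upper part, NM_071300, makes up 40.7% and 46.6% of the wild-type bars and 11.4% and 14.6% of the mutant bars.

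Differences between libraries of the same genotype were set beside those between genotypes. In 29 of 44 members, 65.9%, the larger gap between libraries of 1 genotype exceeded the log2 fold change between genotypes, against 68.4% of all tested genes. The gaps had a direction: 32 of 44 members, 72.7%, had their higher wild-type value in library 1, where 45.2% of all tested genes were. In the mutant, 24 of 44, 54.5%, were higher in the second library, against 41.8% of tested genes. Both held for 17 members, 38.6%, against 21.6% of tested genes, and the reverse of both for 5, 11.4% against 29.01%. Among the 10 most abundant members, 6 were high in the first wild-type and the second mutant library (gst-5, gst-1, gst-4, gst-10, gst-36 and gst-20), and gst-24 alone showed the reverse.

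The family total was likewise higher in these libraries than in the others, and so were cuticle and moulting markers, whose sums of 355 and 176 FPKM in the first wild-type and second mutant libraries stood against 23.4 and 35.7 FPKM in the other two. Hypodermis markers summed to 217 and 121 FPKM in these libraries and to 85.9 and 65.0 FPKM in the others. The largest difference was that of dpy-13, at 131 and 2.48 FPKM in wild type, against 3.84 and 49.9 FPKM in the mutant. The markers dpy-7 and nhr-23 had the same order. Against it, lin-26 was lower in the first wild-type library (36.2 and 66.2 FPKM), and elt-3 was lower in the second mutant library (25.7 and 23.3 FPKM). Muscle and pharynx markers went the opposite way in wild type, with sums of 376 and 506 and of 379 and 582 FPKM. In the mutant their sums differed little, at 446 and 435 and at 498 and 491 FPKM. Single muscle markers differed more there. The genes myo-3 (115 and 87.4 FPKM) and hlh-1 (8.06 and 4.19 FPKM) were higher in the first mutant library, and unc-54 (324 and 344 FPKM) in the second. All 5 intestinal markers had their higher mutant value in library 2, while in wild type act-5, ifb-2 and vha-6 were higher in the first library, ges-1 in the second, and elt-2 stood at 10.4 FPKM in both. They summed to 1558 and 1418 FPKM in wild type and to 839 and 1390 FPKM in the mutant, with the lowest value in the first mutant library. Most of that sum came from the intestinal actin gene act-5, at 1167 and 1060 FPKM in wild type, against 573 and 978 FPKM in the mutant. Between genotypes act-5 and ifb-2 had both mutant values below wild type, the other 3 overlapped, vha-6 and ges-1 had estimates above 0, and 0 of the 5 passed limma. The part of these markers in the gst levels was not tested.

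**Figure D5:**
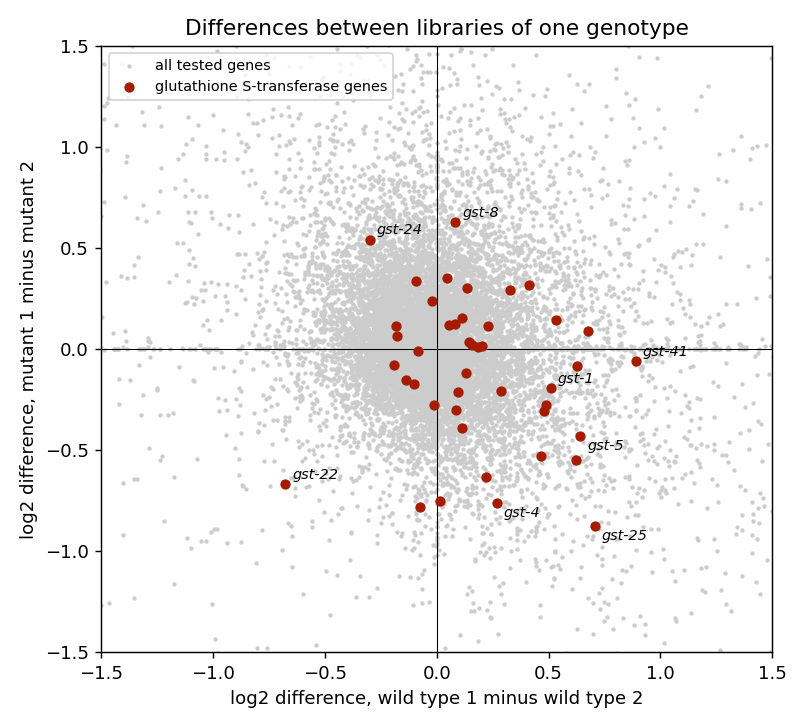
Log2 difference between the libraries of 1 genotype, wild type on the horizontal and mutant on the vertical axis, for the gst genes (red) and all tested genes (grey; those beyond 1.5 lie outside the axes). Of the 44 members 17 lie at the lower right, high in the first wild-type and the second mutant library.

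Genes that make glutathione, regulate its transferases or export conjugates were read from lists of the pathway. Of 64 genes listed, 58 had values and 55 were tested, and 0 passed limma in either direction. At an unadjusted limma p under 0.05 there were 7 of the 55, all of them higher in the mutant. Over all tested genes 6.28% were higher and 5.58% lower at that p. The median log2 fold change of the 55 was 0.13, beside 0.09 for all tested genes. In 22 of the 55 both mutant values lay above wild type and in 6 both lay below, where 28.1% and 15.9% of tested genes did.

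Glutathione synthesis begins with glutamate-cysteine ligase, encoded by gcs-1, which stood at 48.1 and 46.6 FPKM in the wild-type pair, against 50.6 and 60.7 FPKM in the mutant pair (log2 fold change 0.22, SE 0.14, limma adjusted p = 0.614). Glutathione reductase, gsr-1, returns oxidized glutathione to its reduced form. It stood at 37.5 and 41.5 FPKM in the wild-type pair, against 27.0 and 36.5 FPKM in the mutant pair (log2 fold change -0.32, SE 0.20, limma adjusted p = 0.614). Over the 23 tested genes of glutathione and thioredoxin chemistry the median was 0.01, with 5 above and 5 below wild type without overlap, beside 28.1% and 15.9% of all tested genes. The most abundant by mean in all libraries was the glutaredoxin gene glrx-10, at 450 and 328 FPKM and at 402 and 360 FPKM, followed by the mitochondrial peroxiredoxin gene prdx-3, at 191 and 189 FPKM and at 181 and 203 FPKM. The peroxiredoxin gene prdx-2 had a value of 0 in 3 libraries and 169 FPKM in wild-type library 2. The 0 values do not show that its RNA was absent there.

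The omega-class genes with gsto symbols and the kappa-class genes with gstk symbols fell outside the symbol rule and were not members. In 4 of these 5 genes the mutant pair lay wholly above wild type, as it did in 28.1% of all tested genes. None of the 5 passed limma, and gstk-1 was at an unadjusted p under 0.05. The omega-class gene gsto-1 stood at 43.3 and 47.2 FPKM in the wild-type pair, against 47.6 and 56.9 FPKM in the mutant pair (limma adjusted p = 0.627). The kappa-class gene gstk-1 stood at 24.2 and 20.7 FPKM and at 30.0 and 29.9 FPKM (log2 fold change 0.40, SE 0.13, limma adjusted p = 0.401), and gstk-2 at 32.7 and 27.96 FPKM and at 37.4 and 33.1 FPKM (limma adjusted p = 0.627). The glyoxalase gene glod-4 stood at 22.9 and 20.8 FPKM and at 27.7 and 25.3 FPKM, and djr-1.1, a DJ-1 relative with glyoxalase activity, at 54.8 and 55.3 FPKM and at 60.0 and 52.3 FPKM (limma adjusted p = 0.518 and 0.955).

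No tested gene of the list on SKN-1 regulation passed limma either. The gene skn-1 itself was found at 79.0 and 121 FPKM in the wild-type pair, against 66.1 and 97.4 FPKM in the mutant pair (log2 fold change -0.28, SE 0.32, limma adjusted p = 0.719). Its repressor wdr-23 stood at 109 and 100 FPKM in the wild-type pair, against 131 and 135 FPKM in the mutant pair (log2 fold change 0.35, SE 0.10, limma adjusted p = 0.375), and so both mutant values lay above wild type. The most abundant gene of the list, the hypoxia factor gene hif-1, stood at 229 and 241 FPKM and at 252 and 277 FPKM (limma adjusted p = 0.611). In the activating arm, the p38 kinase gene pmk-1 was found at 33.5 and 35.9 FPKM in the wild-type pair, against 45.7 and 46.5 FPKM in the mutant (log2 fold change 0.40, unadjusted p = 0.0233, limma adjusted p = 0.334). The adaptor gene tir-1, which acts upstream of that cascade, stood at 27.5 and 33.3 FPKM, against 80.03 and 50.6 FPKM (log2 fold change 1.05, unadjusted p = 0.0273, limma adjusted p = 0.351). In the same list sek-1 was level, at 43.3 and 46.3 FPKM, against 45.0 and 43.7 FPKM (log2 fold change -0.01, limma adjusted p = 0.974). The largest fall in that list was that of mdt-15, at 28.7 and 55.5 FPKM, against 0 and 27.7 FPKM (log2 fold change -2.93, SE 1.88, limma adjusted p = 0.625). Its size rests on the value of 0 in the first mutant library, which does not show that the RNA was absent. Over the 19 tested genes of this list the median log2 fold change was 0.07. The mutant pair lay wholly above wild type in 7 and wholly below in 1, beside 28.1% and 15.9% of all tested genes. The gene daf-16 was listed at 0 in all libraries, which does not show that its RNA was absent. Entries matched to no gene held 20.9% to 21.7% of the FPKM of a library. Whether daf-16 fragments were counted under other entries was not tested.

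Conjugates leave cells through ABC transporters of the MRP class. Of 6 tested mrp genes, 5 had the mutant pair wholly above wild type and 0 passed limma, with a median log2 fold change of 0.34. Over all tested genes 28.1% lay wholly above and the median was 0.09. The most abundant, mrp-1, stood at 52.4 and 53.1 FPKM in the wild-type pair, against 68.0 and 69.4 FPKM in the mutant pair (log2 fold change 0.38, SE 0.09, limma adjusted p = 0.323). Next came mrp-2, at 29.6 and 34.0 FPKM and at 48.9 and 39.4 FPKM (log2 fold change 0.45, SE 0.17, limma adjusted p = 0.453).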

How the data were processed

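RNA sequencing of 4 libraries was used. Per the submitters' processing notes, the authors used TopHat2 and Cufflinks with genome build ce11, and the deposited values are FPKM, 1 per RefSeq accession and library; no source used here gives versions, annotation, strand or the treatment of reads aligning to several places. The table holds no counts, so depth is unknown here. Accessions were matched without version to RefSeq genes (assembly WBcel235, same coordinates as ce11; 47645 of 52491 matched) and FPKM summed per gene with pandas 2.3.3. The filter kept genes averaging 1 FPKM or more, and limma 3.58.1 in R 4.3.3 (intensity trend) was applied to log2(FPKM + 1), adjusted by Benjamini-Hochberg over all 15202 genes; this scale understates changes of low genes. The code was tested on simulated data. Members and lists were chosen with earlier results of these data known. Full values were given for gst-1, gst-4, gst-10 and gst-42, any member past the threshold, the 10 most abundant, and the 5 highest and 5 lowest fold changes; any others were picked with their values in view. From the lists came members past the threshold or the 2 most abundant, and skn-1, wdr-23, gcs-1 and gsr-1. The genes gstk-1, prdx-2, daf-16, pmk-1, tir-1, sek-1, mdt-15 and the markers named were added with their values in view. Pseudocount, filters, scaling, trend, block, accession handling and each library left out were varied. No sequence was available here, so similarity between members was not computed.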

Additional observations from a re-analysis of the deposited data

How the results depend on the processing

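FPKM give no read counts, so counting error could not be set beside the spread. A fit that leaves out 1 library assumes that the lone library of a genotype varies like the other genotype. Under all 12 alternatives 0 members were called, and the lowest adjusted p of a named member was 0.0988. The count over all genes, 252, became 105 at a mean of at least 5 FPKM, 391 without a trend, 0 with the replicate block, and 369 to 767 with 1 library left out. Over all tested genes, same-numbered libraries did not deviate together (correlation -0.06). That value cannot show whether they shared a batch, and the 0 calls with the block are not read as a weaker effect. The family median, 0.08, was -0.021 under median-ratio scaling and -0.020 to 0.15 with 1 library left out. Pathway calls ranged from 0 to 1 with 1 library left out; the 1 was prdx-2 without the first wild-type library. Signs of log2 fold changes turned under median-ratio scaling for gst-20 (-0.083), gst-24 (-0.012), gst-42 (-0.059) and gst-5 (-0.064), under quantile normalization for gst-20 (-0.0047) and gst-42 (-0.032), and with the highest single accession for gst-10 (0.20 in place of -0.43) and gst-5 (-0.082). With 1 library left out, log2 fold changes ranged from -0.046 to 0.085 for gst-20, -0.18 to 0.36 for gst-24, -0.064 to 0.15 for gst-42, -0.28 to 0.36 for gst-5, -0.12 to 0.39 for gst-1, -0.75 to 0.032 for gst-26, -0.59 to 0.17 for gst-4 and -0.19 to 0.58 for gst-10 accession NM_001316843. The other 11 named members kept their sign throughout, though with 1 library left out gst-36 ran from 0.014 to 0.54, gst-27 from -0.96 to -0.21 and gst-30 from -0.53 to -0.23. The summed gst-10 value ran from -0.74 to -0.11, and gst-10 accession NM_071300 stayed between -2.56 and -1.69 over 11 alternatives (limma adjusted p = 0.177 to 0.513). The cause of these moves was not tested.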

Other observations

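The shift between accessions of gst-10 was set beside other genes, after its values were seen. Of 2275 genes with more than 1 accession and a mean of at least 10 FPKM, 125 (5.49%) had an accession whose share was lower in both mutant libraries than in both wild-type libraries by at least as much as NM_071300, whose mean share differed by -30.7 percentage points between mutant and wild type.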
